A study of Mus musculus with 24 samples.

Results

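The genes of retinoic acid synthesis, breakdown and binding were followed in WT and SmcHD1-mutant (KO) cells of 1 mouse ESC line at 4 stages of neural differentiation. There were 9 of them among the 23119 genes listed: the retinaldehyde dehydrogenases Aldh1a1, Aldh1a2 and Aldh1a3, the retinoic acid hydroxylases Cyp26a1, Cyp26b1 and Cyp26c1, the cellular retinoic acid-binding proteins Crabp1 and Crabp2, and the receptor Rarb. Members were found by gene symbol, and the group was chosen by the FPKM of Aldh1a1 in the NSC libraries, which was higher in KO than in WT. KO against WT in NSCs is therefore given for all 9 as a description with no test. Of the 9, 8 had a mean of at least 1 FPKM (fragments per kilobase, scaled for library size) over the 24 libraries and entered the fit of 12105 genes. Aldh1a3, with a mean of 0.454 FPKM, did not. Aldh1a1 passed this filter through its level in NSCs alone, which chose the group, so it is given no test at any stage and counts run over the other 7.

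Retinoic acid is a small lipid signal made from retinol in 2 steps, and the second, irreversible step is carried out by the ALDH1A enzymes. CYP26 enzymes hydroxylate it and so clear it from a cell, CRABP proteins carry it in the cytoplasm, and in the nucleus it binds RAR–RXR receptor pairs that switch genes on. In the early embryo Aldh1a2 in the mesoderm is the main source, while Cyp26 genes in the anterior neural plate and hindbrain keep the signal low there. The balance patterns the hindbrain and spinal cord. Rarb and Cyp26a1 are themselves direct targets of the signal.

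JB4/EI7HZ2 is a female line from a JF1 × B6 cross that carries CAGzeo at Hprt on the JF1 X chromosome and IRESneo in Eif2s3x on the B6 X chromosome, and mESCs and NSCs were grown under both drugs, G418 and zeocin. The KO line was derived from it with a guide to the ATPase domain of Smchd1 and carries a deletion on both alleles. As each genotype was 1 line, genotype and line cannot be told apart. WT and KO cells were collected as mESCs in serum with 2i and LIF, as neurectoderm aggregates at day 7 and day 9, and as NSCs. Each of the 8 groups had 3 replicates. The NSCs were made by a separate protocol, from coated wells through aggregates to attached outgrowth, and were kept in FGF2 and EGF. In what follows, aggregates means the day 7 and day 9 samples. Smchd1 stood at 13.0 to 26.4 FPKM in the 12 WT libraries and at 1.82 to 4.40 FPKM in the 12 KO libraries. The summed level of 7 pluripotency markers was 2766 to 3396 FPKM in mESCs and 5.72 to 12.7 FPKM in NSCs, and that of 8 neural stem markers was 401 to 476 FPKM in mESCs and 3889 to 6949 FPKM in NSCs, so the labels and the markers pointed the same way. Read totals are not given in the sources used here, but the steps between low values put the libraries' relative depth at 0.811 to 1.152 of their typical value. At day 7, WT replicate 1 had the lowest endoderm and mesoderm marker sums of its group, and in NSCs WT replicate 1 had an astrocyte marker sum under that of the other libraries. Calls of members that changed without them are given beside the results.

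Among the members, a pair with known retinoic acid response elements is shown here by the RefSeq promoter windows (GRCm38.p6, 250 bases before the start, written 5′ to 3′ on the gene's strand) because the text returns to both genes. Capitals mark a direct repeat of 2 half-sites with 5 bases between them (DR5), the spacing that RAR–RXR pairs bind best.
Rarb, chr14:16575477-16575726, minus strand: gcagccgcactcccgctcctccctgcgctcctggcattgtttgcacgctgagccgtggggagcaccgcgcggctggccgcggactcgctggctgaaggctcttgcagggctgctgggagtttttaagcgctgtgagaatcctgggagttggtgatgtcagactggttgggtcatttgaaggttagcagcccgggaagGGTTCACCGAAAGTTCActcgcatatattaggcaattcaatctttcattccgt
Cyp26a1, chr19:37697558-37697807, plus strand: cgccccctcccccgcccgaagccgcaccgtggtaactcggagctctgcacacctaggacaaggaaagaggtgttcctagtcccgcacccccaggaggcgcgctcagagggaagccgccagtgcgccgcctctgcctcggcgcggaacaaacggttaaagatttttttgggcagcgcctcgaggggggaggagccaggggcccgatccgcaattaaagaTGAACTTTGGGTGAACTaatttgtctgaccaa
The half-sites searched on both strands were AGGTCA and its variants, namely AGTTCA, further GGGTCA and likewise GGTTCA, as direct repeats with 5, 2 or 1 bases between. In the Rarb window the repeat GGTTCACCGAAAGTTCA ended 36 bases before the start. In the Cyp26a1 window it lay on the other strand and read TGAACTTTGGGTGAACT on the gene's own strand, 15 bases before the start. A DR5 was found in 29 of 32851 mouse windows, 0.0883%. Windows were at hand for 7 of the 9 members, and those of Aldh1a1, Aldh1a2, Cyp26b1, Cyp26c1 and Crabp1 held no repeat of the 3 spacings. A match of letters is a description of the window and does not show binding.

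The 9 genes fell into different patterns over the stages. In WT mESCs only Aldh1a2, Aldh1a3, Crabp1 and Crabp2 averaged above 0.1 FPKM. At day 7, Crabp1 and Crabp2 were the most abundant members and all 3 Cyp26 genes were above 10 FPKM in each WT library. In NSCs, Aldh1a1 was present and Cyp26a1 and Cyp26c1 were at 0 in all 6 libraries. From WT mESCs to WT day 7, 6 of the 7 genes tested rose and 0 fell, where 59.2% of all tested genes were called in either direction (limma, Benjamini-Hochberg adjusted p over 12105 genes, as everywhere unless another test is named). Crabp2 rose 530-fold and Crabp1 55.2-fold. On the log2(FPKM + 1) scale the rise was 8.10 (adjusted p = 8.79e-16) for Crabp2, 5.94 (1.77e-13) for Cyp26c1, 5.82 (5.37e-06) for Crabp1, 4.25 (7.44e-13) for Cyp26a1, 4.05 (1.06e-12) for Cyp26b1 and 1.23 (0.00256) for Rarb. All of these but Crabp1 had reached the mean of 1 FPKM through the aggregates alone, so the count favours genes that rise into them and nothing is read from it against the 59.2%. With no filter on low values, where every gene enters, each of the 6 kept its call (adjusted p at most 0.00377). In these bulk samples, here and in every result that follows, fewer cells of a type and less RNA per cell cannot be told apart.

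**Figure D1:**
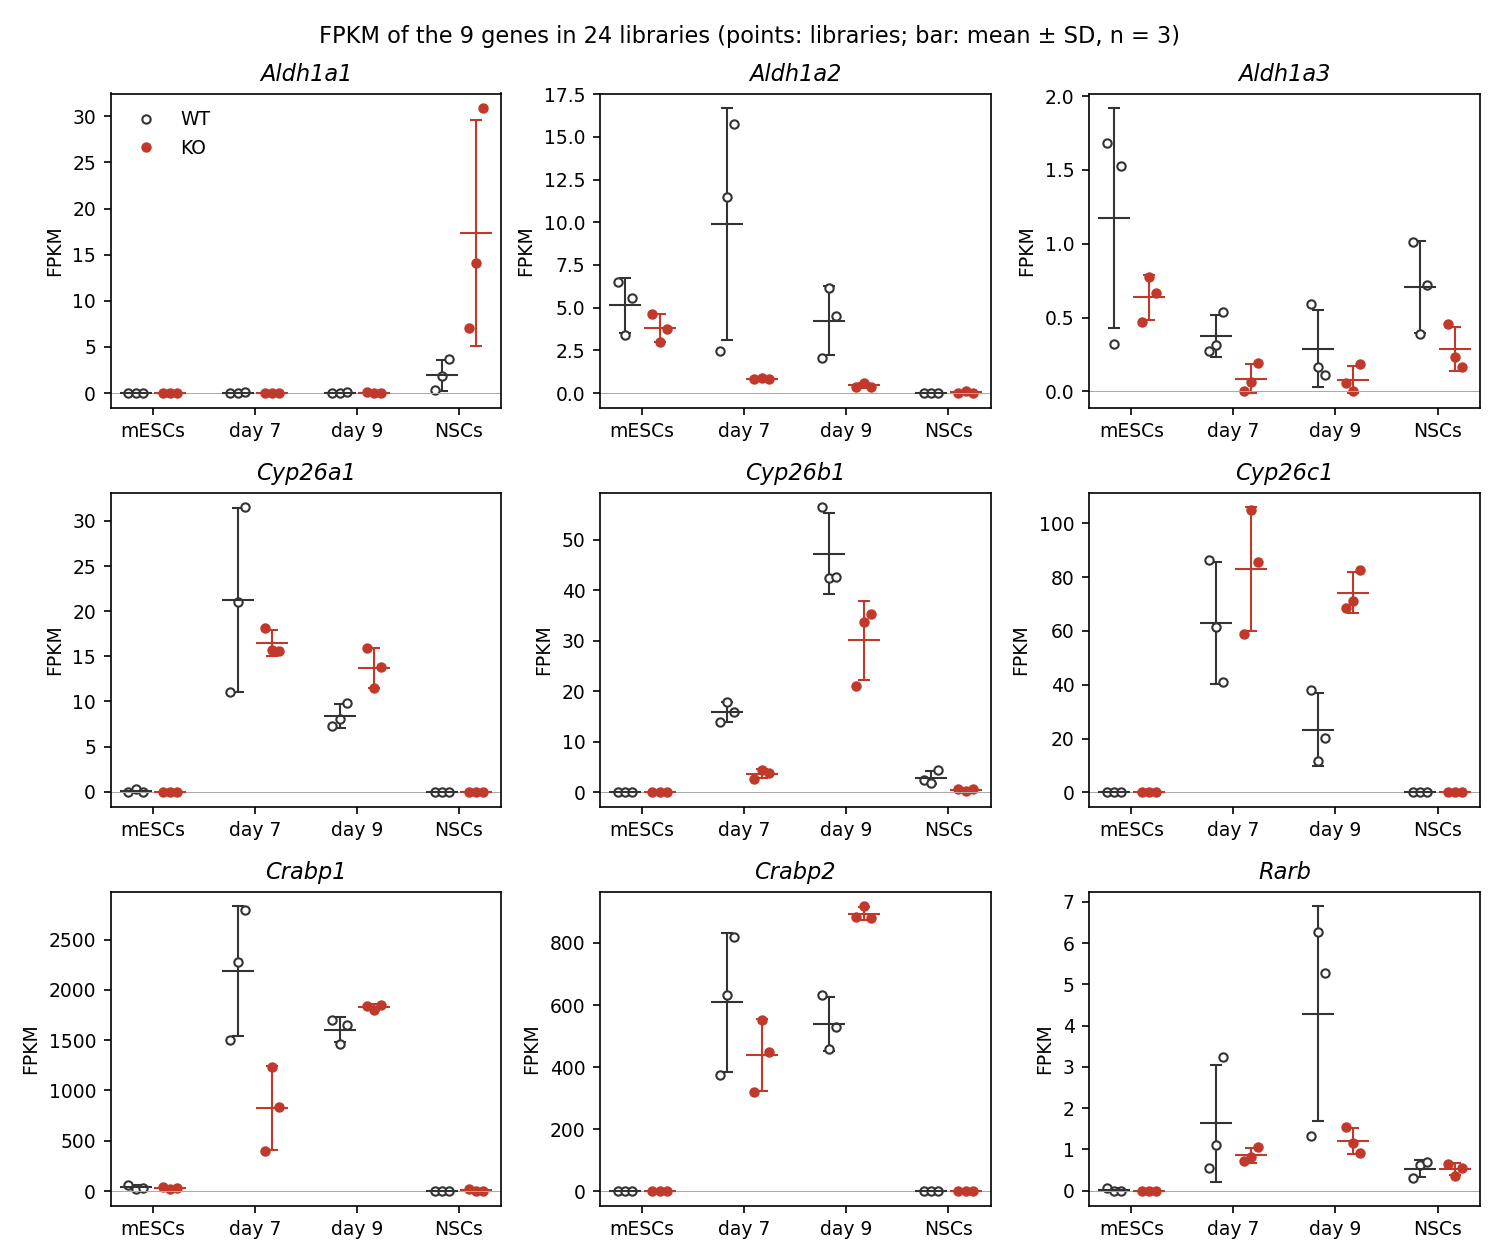
FPKM (linear axis, own range per panel) of each of the 9 genes at the 4 stages, WT with open and KO with filled points for libraries, and a bar for the mean ± SD of 3. Aldh1a1 was above 1 read's worth only in NSCs, Cyp26a1 and Cyp26c1 were above 0.3 FPKM only in the aggregates, and Crabp1 reached 2791 FPKM in a WT day 7 library.

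From WT day 7 to day 9, 4 of 7 changed against 33.8% of all tested genes. Cyp26b1 rose by 1.51 (adjusted p = 1.51e-05) and Rarb by 0.98 (0.0227), while Cyp26a1 fell by 1.14 (0.000491) and Cyp26c1 fell by 1.49 (0.000336). The Cyp26c1 call was lost with these libraries fitted alone (adjusted p = 0.0748, the highest of a range from 6.5e-06). Aldh1a2, at -0.86 (0.084), passed without WT day 7 replicate 1 (-1.55, 0.000158, the lowest of a range up to 0.438) or WT day 9 replicate 2 (0.0494). Rarb passed the filter on the mean only through WT day 9, since the other groups averaged 0.682 FPKM, but its call was kept with no filter (adjusted p = 0.0305). The Rarb rise lost its call without WT day 7 replicate 1 or 2 or WT day 9 replicate 2 or 3, and over 13 alternatives its adjusted p ranged from 0.000288 to 0.19. In WT NSCs against WT mESCs, 4 of 7 differed where 75.2% of tested genes did. Cyp26b1 was higher by 1.89 (7.32e-08), while Aldh1a2 fell by 2.58 (2.6e-06), Crabp1 fell by 3.96 (0.000175) and Crabp2 fell by 0.66 (0.0207). Aldh1a1 was higher by 1.38, given without a test. The Crabp2 call was lost on scaling to the same FPKM sum and without WT mESC replicate 1 or WT NSC replicate 1 or 2, with an adjusted p of 0.00161 to 0.105 over the alternatives.

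The same stages were compared in KO. From KO mESCs to KO day 7, 7 of 7 changed against 61.3% of all tested genes, 6 of them upward: Crabp2 by 7.14, Cyp26c1 by 6.21, Crabp1 by 4.71, Cyp26a1 by 4.13, Cyp26b1 by 2.18 and Rarb by 0.89. The filter favours the rises here too, and nothing is read from that count, but the 7 calls were kept with no filter (adjusted p at most 0.0293). The Rarb rise (adjusted p = 0.0216) was lost without KO day 7 replicate 3 (0.0668, the highest of the alternatives, from 2.27e-05). Aldh1a2 fell by 1.37 (adjusted p = 0.00364). In WT its value was 0.58 (adjusted p = 0.193), and it passed only without WT day 7 replicate 1, at 1.27 (0.000355, the lowest of a range up to 0.785). The difference between the genotypes in this change, -1.95, did not pass (adjusted p = 0.0722), but it did so with the replicate block (0.041) and without WT day 7 replicate 1 (-2.64, 0.000118), over a range of 0.000118 to 0.222. From KO day 7 to day 9, 2 of 7 changed against 30.6%: Cyp26b1 rose by 2.72 (6.86e-09) and Crabp2 by 1.06 (0.00293). In KO NSCs against KO mESCs, 4 of 7 differed against 76.0%, with Cyp26b1 higher by 0.59 (0.0176) and Aldh1a2, Crabp1 and Crabp2 lower, by -2.20 (1.96e-05), -3.20 (0.00116) and -0.84 (0.00438). Cyp26b1 lost that call without KO NSC replicate 1 or 3, with an adjusted p of up to 0.0702, and Crabp1 with these libraries fitted alone (0.0771, the highest of a range from 4.51e-07). These stage comparisons share groups with each other and with the comparisons of genotype below, so their calls are not independent.

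Aldh1a1, a cytosolic retinaldehyde dehydrogenase that is strong in adult eye, liver and dopamine neurons, was read in NSCs and at no more than 1 read's worth in any other library. In WT NSCs it stood at 0.311, 1.85 and 3.67 FPKM in replicates 1, 2 and 3, and in KO NSCs at 7.09, 14.1 and 30.9 FPKM. Every KO library was above every WT library, but within each genotype the libraries differed widely, with a mean of 17.4 ± 12.2 FPKM (SD, n = 3) in KO and 1.94 ± 1.68 FPKM in WT. The difference of means was 2.60 on the log2(FPKM + 1) scale, and 2.09 to 3.08 with 1 library left out. No label pairs WT with KO, but same-numbered NSC libraries had correlated deviations from their group means (r of 0.335, 0.184 and 0.24). Between libraries of the same number, KO stood at 22.8, 7.61 and 8.43 times the WT level for numbers 1, 2 and 3. From the step between low values, the WT levels stood for about 3, 19 and 38 reads and the KO levels for about 62, 138 and 316. From KO mESCs, where it was listed at 0, to KO NSCs the difference was 3.98, again with no test. The order of groups was thus KO NSCs, WT NSCs and then the other 6.

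The table's Aldh1a1 locus is chr19:20676472-20717952 on the plus strand (mm9), with no overlapping gene. RefSeq gives it a pair of starts, which lie 109385 bases apart. Both 250-base windows before them are shown because the next gene to be described has its lower coordinate near the upstream one. The upstream window held none of the half-sites and the downstream window held 1, in no repeat, so neither has capitals.
Upstream start, chr19:20492333-20492582 (GRCm38.p6), plus strand: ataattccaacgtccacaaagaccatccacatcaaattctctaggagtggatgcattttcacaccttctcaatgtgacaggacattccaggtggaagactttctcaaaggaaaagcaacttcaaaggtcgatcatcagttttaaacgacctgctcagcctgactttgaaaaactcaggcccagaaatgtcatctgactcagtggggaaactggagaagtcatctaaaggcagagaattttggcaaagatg
Downstream start, chr19:20601718-20601967 (GRCm38.p6), plus strand: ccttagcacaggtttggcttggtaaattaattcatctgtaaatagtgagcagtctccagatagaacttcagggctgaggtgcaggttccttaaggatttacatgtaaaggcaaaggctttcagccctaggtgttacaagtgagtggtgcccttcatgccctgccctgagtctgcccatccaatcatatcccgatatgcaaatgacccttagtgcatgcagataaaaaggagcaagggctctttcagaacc
A single half-site was found in 38.6% of all windows. The upstream window matched mm9 once. The base after it, 20567073, lies 132 bases below the lower coordinate of E030003E18Rik, a long non-coding RNA gene listed at chr19:20567205-20630900. The strand of E030003E18Rik was not looked up, so which of its coordinates is its start is not given here. A further entry listed at the same coordinates was at 0 in all 6 NSC libraries. E030003E18Rik was picked out after its values were seen. It stood at 0.430, 0.607 and 1.40 FPKM in WT NSCs, at 2.61, 5.30 and 9.94 FPKM in KO NSCs, and at 0 in all other libraries. Over the 6 NSC libraries its values stood in the same order as those of Aldh1a1. Whether the reads were counted by strand is not given in the sources used here, so reads of an Aldh1a1 transcript from the upstream start and reads of E030003E18Rik cannot be told apart where they overlap. Within 500 kb of Aldh1a1 the fit held only Anxa1, with a difference of 0.07 (SE 0.43, adjusted p = 0.986).

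Aldh1a7, a close mouse copy of Aldh1a1 on the same chromosome, was listed at 0, 0.288 and 0 FPKM in WT NSCs and at 0.338, 0.504 and 0.578 FPKM in KO NSCs. Of the 1974 windows of 80 bases in the Aldh1a1 transcript, 37 (1.87%) also occurred in that of Aldh1a7 and 294 (14.9%) did so within 2 mismatches. No window matched another member at that distance, so reads can be shared with Aldh1a7 but hardly with Aldh1a2 or Aldh1a3. The other members were low in NSCs. Cyp26b1 stood at 2.41, 1.91 and 4.36 FPKM in WT and 0.744, 0.208 and 0.717 FPKM in KO NSCs. Aldh1a3 was 1.01, 0.391 and 0.718 FPKM in WT NSCs and 0.458, 0.234 and 0.168 FPKM in KO NSCs, and Crabp2 was 0.272, 0.256 and 0.506 FPKM against 1.20, 0.268 and 0.770 FPKM, with overlap in both genes. Crabp1 was 3.53, 0.331 and 1.31 FPKM in WT NSCs against 16.7, 0 and 0.665 FPKM in KO NSCs, and its KO mean of 5.79 FPKM came almost wholly from replicate 1.

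Marker sums of several cell types separated the NSC genotypes beside Aldh1a1. The summed level of 6 astrocyte markers was 340, 738 and 782 FPKM in WT replicates 1, 2 and 3 and 857, 978 and 1105 FPKM in KO, which is the same order of libraries as for Aldh1a1. None of the 6 was at 0 in all libraries of either genotype. Of the 5 in the fit, 1 passed the test in KO against WT NSCs, where 6.02% of all tested genes did: S100b, higher by 1.37 (SE 0.35, adjusted p = 0.0226), and it was named after its values were seen. Of 7 ventral midbrain markers, which include those of dopamine neurons, the sum was 6.07 to 6.97 FPKM in WT and 9.88 to 13.1 FPKM in KO, 0 of the 6 in the fit were called, and Th was at 0 in both genotypes. The 8 neural stem markers summed to 5494 to 6949 FPKM in WT and to 3889 to 4738 FPKM in KO, none was at 0, and 2 of 8 were lower, Sox2 (-0.49, adjusted p = 0.0308) and Vim (-0.55, adjusted p = 0.0415). The 10 endoderm markers summed to at most 0.176 FPKM in WT and to 2.50 to 5.75 FPKM in KO. Of the 10, 8 were at 0 in all WT libraries and 6 in all KO libraries, with Sox17 and Afp at 0 in both. Of the 6 in the fit, 1 was higher, Foxa1 (1.26, adjusted p = 0.0138), and the median difference of the 6 was 0.0. Foxa2 is on this list and on that of ventral midbrain. The part of these lists in the Aldh1a1 difference was not tested. Leaving out WT NSC replicate 1, which had both the lowest Aldh1a1 and the lowest astrocyte sum, gave an Aldh1a1 difference of 2.11 in place of 2.60.

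**Figure D2:**
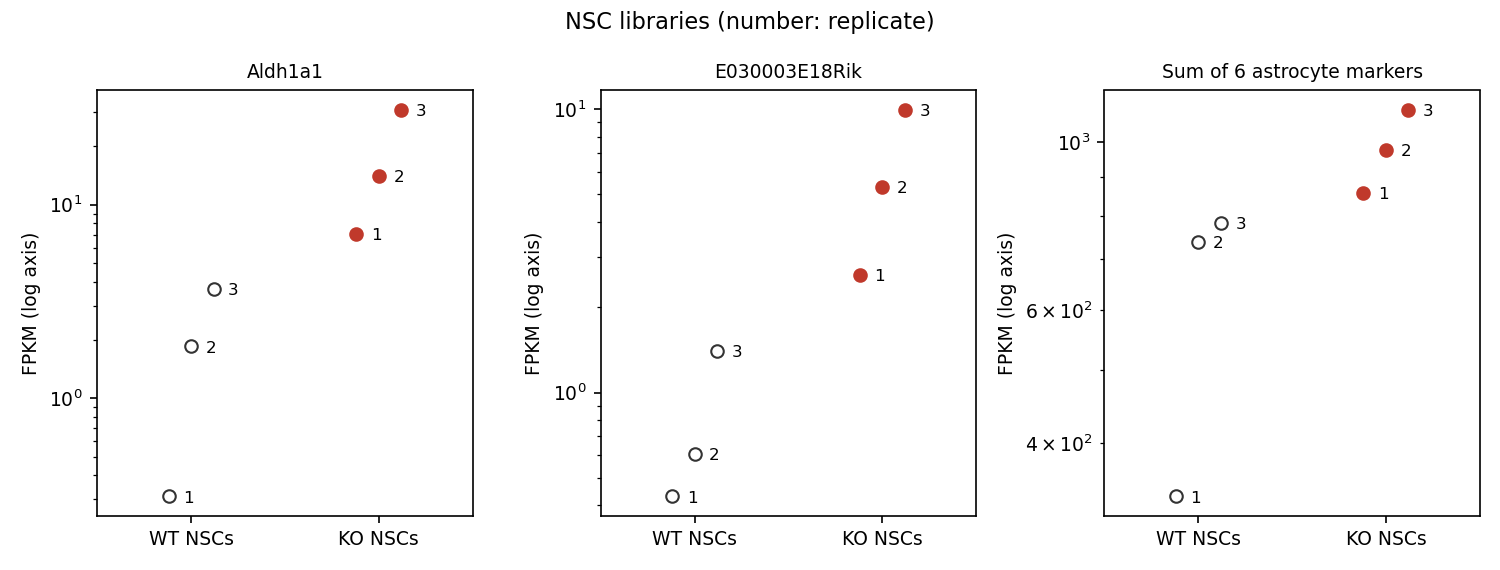
FPKM on a log axis in the 3 WT (open) and 3 KO (filled) NSC libraries, numbered by replicate, for Aldh1a1, for E030003E18Rik and for the sum of 6 astrocyte markers. In each panel the libraries lie in the same order, from WT replicate 1 to KO replicate 3, with a spread from 0.311 to 30.9 FPKM for Aldh1a1 and from 340 to 1105 FPKM for the marker sum.

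Aldh1a2, the main retinoic acid-making enzyme of the early embryo, carried most of the Aldh1a signal before the NSC stage. In mESCs it stood at 6.52, 3.38 and 5.56 FPKM in WT and at 4.61, 2.99 and 3.77 FPKM in KO, with overlapping libraries. At day 7 it was 2.47, 11.5 and 15.8 FPKM in WT and 0.804, 0.907 and 0.805 FPKM in KO. WT replicate 1 was the lowest of its group, yet it stayed above all KO libraries. The mean was 9.91 ± 6.79 FPKM in WT and 0.839 ± 0.0595 FPKM in KO, 11.8-fold lower in KO, and the difference was -2.29 (SE 0.38, adjusted p = 0.00065). At day 9 the libraries were at 2.08, 6.12 and 4.50 FPKM in WT and at 0.348, 0.596 and 0.377 FPKM in KO, a 9.61-fold lower mean and a difference of -1.78 (SE 0.38, adjusted p = 0.00425). The day 9 call held under all 13 alternatives (adjusted p up to 0.0426). The day 7 call held under 12 and was lost when the libraries of day 7 alone were fitted (0.092, the highest of a range from 2.29e-07). In NSCs it was at 0 in 5 of 6 libraries and at 0.0908 FPKM in KO replicate 2. By group mean the order was WT day 7 (9.91 FPKM), WT mESCs (5.15), WT day 9 (4.23), KO mESCs (3.79), KO day 7 (0.839), KO day 9 (0.440) and then NSCs, and the libraries of the first 4 of these overlapped.

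Aldh1a3, a further retinaldehyde dehydrogenase known from eye and nose, stayed under 1.7 FPKM throughout. It stood at 0.274, 0.317 and 0.535 FPKM in WT and 0, 0.0650 and 0.195 FPKM in KO at day 7, where the libraries did not overlap (exact two-sided permutation p = 0.1, the smallest that 3 against 3 can give). At day 9 the values were 0.589, 0.165 and 0.112 FPKM in WT and 0.0561, 0 and 0.182 FPKM in KO, with overlap (exact permutation p = 0.3). Summed over the Aldh1a genes, day 7 gave 10.3 ± 6.96 FPKM in WT and 0.925 ± 0.106 FPKM in KO and day 9 gave 4.56 ± 1.82 and 0.553 ± 0.0472 FPKM (exact permutation p = 0.1 at each). The sum was therefore below 1 FPKM in every KO aggregate library.

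Markers of the germ layers in which Aldh1a2 is known moved with it. The sum of 10 mesoderm markers at day 7 was 75.5, 190 and 214 FPKM in WT and 9.85, 12.2 and 10.7 FPKM in KO, with Mesp1 and Msgn1 at 0 in all KO libraries. Of the 6 in the fit, 6 were lower in KO, where 3.68% of all tested genes were called. That of 10 endoderm markers was 102, 306 and 379 FPKM in WT and 20.8, 14.8 and 15.1 FPKM in KO, again with 6 of 6 lower. In both lists WT replicate 1 had the lowest sum, as it had for Aldh1a2. At day 9, where 6.68% of all tested genes were called, 4 of 6 mesoderm and 3 of 6 endoderm markers were lower. Their sums were 25.4 to 66.2 against 14.0 to 24.9 FPKM and 69.5 to 149 against 15.7 to 41.1 FPKM. A list of 7 mesenchyme and meninges markers summed to 29.8 to 79.4 FPKM in WT and to 9.32 to 14.8 FPKM in KO at day 9, with 3 of 5 lower. At day 7 its sums were 10.9 to 23.5 FPKM in WT and 6.69 to 7.35 FPKM in KO, with 0 of 5 called. The part of these lists in the Aldh1a2 difference was not tested. Without WT day 7 replicate 1 the Aldh1a2 difference at day 7 was -2.98 (adjusted p = 2.29e-07).

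Of the Cyp26 genes, Cyp26b1 differed between WT and KO at day 7 and Cyp26c1 at day 9, while Cyp26a1 passed at neither. All 3 were nearly absent from mESCs, with a summed level of at most 0.259 FPKM in any library. At day 7 Cyp26b1, the hydroxylase of hindbrain, limb and gonad, stood at 14.0, 17.8 and 15.9 FPKM in WT and at 2.65, 4.48 and 3.92 FPKM in KO. The KO mean was 4.32-fold lower, the difference was -1.87 (SE 0.22, adjusted p = 1.22e-05), and it passed under all 13 alternatives. By day 9 both genotypes were higher, at 56.6, 42.5 and 42.7 FPKM in WT and 21.1, 33.8 and 35.3 FPKM in KO, and the difference of -0.66 (SE 0.22, adjusted p = 0.0807) did not pass. It did so with the libraries scaled to the same FPKM sum (0.0496) and with a replicate block (0.0464), out of a range of 0.0464 to 0.442.

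Cyp26c1, known from the anterior hindbrain and head mesenchyme, differed at day 9. Day 7 libraries were at 86.4, 61.3 and 41.0 FPKM in WT and at 58.8, 105 and 85.4 FPKM in KO, which overlapped (0.42, adjusted p = 0.596). At day 9 the WT libraries had come down to 38.1, 11.6 and 20.0 FPKM while those of KO stood at 68.5, 71.0 and 82.7 FPKM. The KO mean of 74.1 ± 7.60 FPKM was 3.19-fold that of WT, 23.2 ± 13.5 FPKM, with a difference of 1.78 (SE 0.28, adjusted p = 0.000219). It passed under 12 of 13 alternatives and was lost with the day 9 libraries fitted alone (0.0726, from 3.81e-06). The fall from day 7 that Cyp26c1 showed in WT was not called in KO, at -0.13 (SE 0.28, adjusted p = 0.772). The difference between these falls is that of the KO effects at day 9 and day 7, 1.36 (SE 0.40, adjusted p = 0.102), which did not pass. That difference passed in 2 of 12 fits with 1 library left out (adjusted p of 0.00371 to 0.309 over the 12).

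Cyp26a1, the hydroxylase that retinoic acid itself switches on and whose DR5 is shown above, lay next to Cyp26c1 in the table, at chr19:37772298-37776026 and chr19:37760170-37767797 (mm9). It stood at 11.1, 21.0 and 31.6 FPKM in WT and 18.2, 15.7 and 15.6 FPKM in KO at day 7, and at 7.27, 8.11 and 9.84 FPKM in WT and 15.9, 11.5 and 13.8 FPKM in KO at day 9. The day 9 libraries did not overlap, but the difference of 0.64 (SE 0.22, adjusted p = 0.0994) did not pass. It passed only with the day 9 libraries fitted alone (0.0198, out of a range of 0.0198 to 0.409). At day 7 the difference was -0.24 (adjusted p = 0.747), and it passed only without WT day 7 replicate 1 (-0.62, adjusted p = 0.0436, the lowest of a range up to 0.92).

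The makeup of the Cyp26 transcripts was then set beside their total. The summed Cyp26 level at day 7 was 100.1 ± 11.5 FPKM in WT and 103 ± 22.7 FPKM in KO (exact two-sided permutation p = 0.9), and at day 9 it was 78.9 ± 20.6 and 118 ± 13.2 FPKM (exact permutation p = 0.1). Cyp26b1 made up 16.1% ± 3.07 of the sum in WT and 3.55% ± 0.204 in KO at day 7, and 60.9% ± 6.63 and 25.3% ± 4.70 at day 9. Cyp26c1 made up 61.7% ± 15.6 and 79.7% ± 5.21 at day 7 (exact permutation p = 0.2) and 27.9% ± 9.33 and 62.9% ± 1.91 at day 9. The libraries of the 2 genotypes did not overlap in the Cyp26b1 share at either day nor in the Cyp26c1 share at day 9 (exact permutation p = 0.1 for each, the smallest possible). So at day 9 the most abundant Cyp26 gene was Cyp26b1 in all WT libraries and Cyp26c1 in all KO libraries. Cyp26a1 made up 22.2% and 16.7% at day 7 and 11.2% and 11.8% at day 9.

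**Figure D3:**
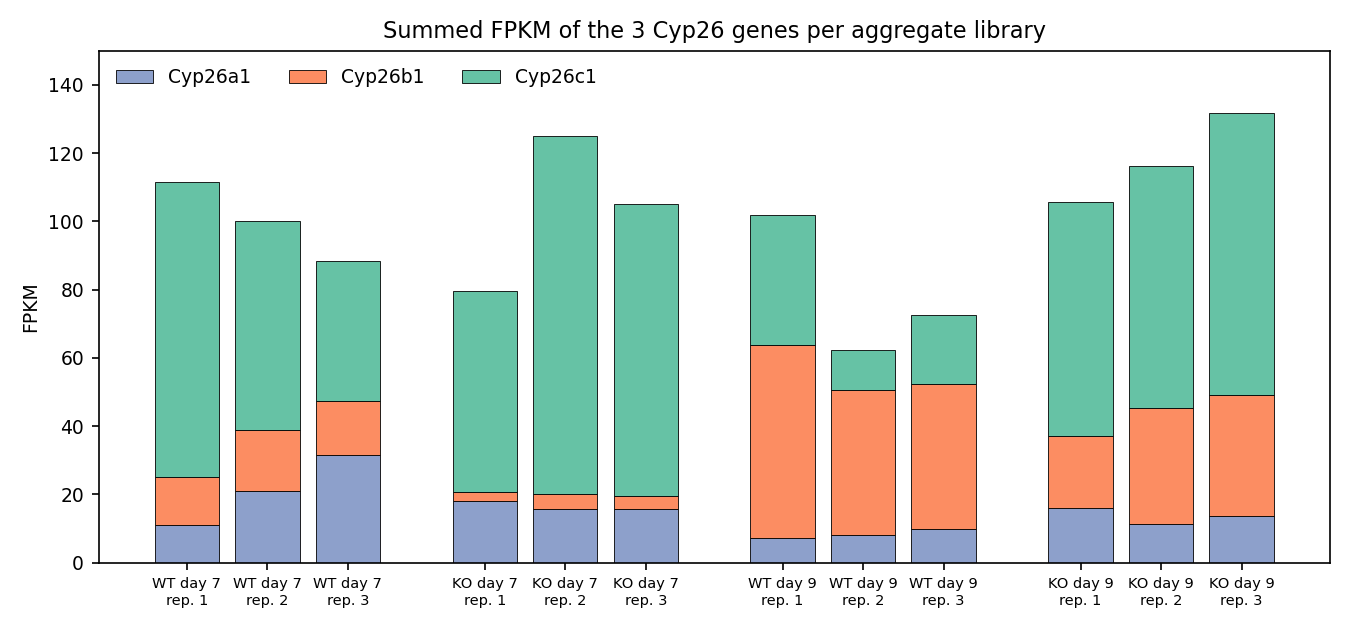
Summed FPKM of Cyp26a1, Cyp26b1 and Cyp26c1, stacked, in each of the 12 aggregate libraries at day 7 and day 9. Totals lie between 62.3 and 131.8 FPKM, and at day 9 Cyp26b1 is the larger part of each WT bar and Cyp26c1 of each KO bar.

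Crabp1 and Crabp2, the cytoplasmic carriers of retinoic acid, were the most abundant members in the aggregates. At day 7 Crabp1 was at 1502, 2273 and 2791 FPKM in WT and at 398, 1231 and 840 FPKM in KO, so that the libraries did not overlap, yet the difference of -1.51 had an SE of 0.77 and did not pass (adjusted p = 0.421). At day 9 it was at 1703, 1462 and 1649 FPKM in WT and 1838, 1801 and 1854 FPKM in KO (0.19, adjusted p = 0.959). In mESCs it stood at 62.7, 23.6 and 32.7 FPKM in WT and 38.9, 20.2 and 26.2 FPKM in KO. Crabp2 rose from 1.65, 0.881 and 0.912 FPKM in WT and 2.79, 1.47 and 2.03 FPKM in KO mESCs to 374, 632 and 820 FPKM and 319, 551 and 450 FPKM at day 7. At day 9 Crabp2 was at 632, 459 and 528 FPKM in WT and 883, 920 and 881 FPKM in KO, with no overlap and a difference of 0.74 (SE 0.25, adjusted p = 0.086) that passed with the day 9 libraries fitted alone (0.00468) and with a replicate block (0.00843), out of a range of 0.00468 to 0.36.

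Summed over both carriers, the level was 2798 ± 873 FPKM in WT against 1263 ± 533 FPKM in KO at day 7 and 2144 ± 209 against 2726 ± 8.25 FPKM at day 9, without overlap at either day (exact two-sided permutation p = 0.1 for each). Crabp1 made up more of it in each WT library than in any KO library at both days, 78.5% ± 1.40 against 63.3% ± 6.95 and 74.9% ± 1.74 against 67.2% ± 0.856 (exact permutation p = 0.1 for each). In mESCs that share was 97.0% ± 0.560 in WT and 93.1% ± 0.254 in KO.

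Rarb, the retinoic acid receptor whose own DR5 is shown above, was low. At day 7 it stood at 0.545, 1.10 and 3.24 FPKM in WT and at 0.709, 0.808 and 1.05 FPKM in KO (-0.37, adjusted p = 0.709). At day 9 it was at 1.33, 6.27 and 5.27 FPKM in WT and at 1.54, 1.16 and 0.906 FPKM in KO. WT replicate 1 lay within the KO libraries and the other WT libraries above them. The mean was 4.29 ± 2.61 FPKM in WT and 1.20 ± 0.316 FPKM in KO, and the difference of -1.12 (SE 0.32) passed at an adjusted p of 0.0379. Rarb was in the fit only through this WT group, and with no filter the adjusted p was 0.0418. Only 6 of 13 alternatives kept that call: it was lost with a pseudocount of 0.1 (0.129), with the day 9 libraries fitted alone (0.145) and without any 1 of the 6 libraries other than WT replicate 1, over a range of 0.000379 to 0.279. WT day 9 replicate 1 also had the lowest sums of endoderm, mesoderm and mesenchyme markers in its group. In NSCs Rarb was at 0.295, 0.625 and 0.687 FPKM in WT and 0.651, 0.364 and 0.557 FPKM in KO.

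Counted over the members, KO against WT called 0 of 7 in mESCs, where 0.529% of all tested genes were called by limma and 1 member, Crabp2 (0.52, adjusted p = 0.648), had an unadjusted p under 0.05. It called 2 of 7 at day 7, both lower, against 3.68% of all genes. At day 9 it called 3 of 7, with Cyp26c1 higher and Aldh1a2 and Rarb lower, against 6.68% of all genes, and 6 of 7 had an unadjusted p under 0.05. Of these 3, Rarb was in the fit only through WT day 9 and kept its call under 6 of 13 alternatives. Nothing is read from its part in the count. The medians over the 7 were -0.03, -0.43 and 0.19 on the log2 scale, and that over all tested genes was 0.00 at each stage. Sums over floor plate markers were also lower in KO, 45.7 to 146 against 24.3 to 28.0 FPKM at day 7 with 3 of 5 called and 190 to 287 against 17.0 to 81.2 FPKM at day 9 with 5 of 5 called. Of the neural stem markers 3 of 8 were called at day 7, with Sox1 higher and Olig2 and Vim lower and sums of 474 to 515 FPKM in WT and 413 to 514 FPKM in KO. At day 9 again 3 of 8 were called, with Pax6 and Sox1 higher and Olig2 lower and sums of 1471 to 1807 against 1798 to 2040 FPKM. Of the ventral midbrain markers 3 of 6 were called at day 7, En1 higher and Lmx1a and Foxa2 lower, and 1 of 6 at day 9, Foxa2, which is also on the endoderm list. Astrocyte markers had 0 of 5 called at day 7 and 2 of 5 lower at day 9, Slc1a3 and Aldoc, with sums of 81.3 to 91.6 FPKM in WT and 65.3 to 76.5 FPKM in KO. Pluripotency markers had 0 of 7 called at either day by limma, with 3 at an unadjusted p under 0.05 at each. The part of any of these lists in the member differences was not tested.

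The KO effects were compared between stages in the same fit. In mESCs Cyp26b1 averaged 0.0157 FPKM in WT and 0.0174 FPKM in KO, and Cyp26c1 averaged 0 FPKM and 0.104 FPKM. At such levels no KO effect on them could be seen in mESCs. Their differences from mESCs therefore largely restate those at day 7 or day 9. The effect on Cyp26b1 at day 7 was lower than that in mESCs by -1.87 (SE 0.31, adjusted p = 0.00166), and this held under all 19 alternatives. It was the 1 of 7 members called, against 1.68% of all genes, while Aldh1a2 (-1.95, adjusted p = 0.0722) passed only with the changes of fit given above. Without WT day 7 replicate 1 there were 3 called, with Aldh1a2 and Crabp2 added (Crabp2 at -1.27, adjusted p = 0.0363, in place of -0.96 and 0.261), and the replicate block added the same 2 genes (Crabp2 at 0.0364). Between day 9 and mESCs 1 of 7 was called against 2.68%, Cyp26c1, by 1.64 (SE 0.40, adjusted p = 0.0262), and that call held under 8 of 19 alternatives. It was lost with the replicate block (0.0545), with a pseudocount of 0.1 (0.549, the highest, from 0.000612), with these libraries fitted alone and without WT or KO mESC replicate 3, WT mESC replicate 1, KO mESC replicate 2, WT day 9 replicate 2 or 3 or KO day 9 replicate 1 or 3. Between day 9 and day 7 again 1 of 7 was called, against 1.83%: Cyp26b1, by 1.21 (SE 0.31, adjusted p = 0.0414). That call held under 9 of 19 alternatives, with an adjusted p of 0.0151 to 0.316, and was lost with a pseudocount of 0.1, on scaling to the same FPKM sum (0.111) and without replicate 2 or 3 of WT day 7, of WT day 9 or of KO day 9, or replicate 1 or 3 of KO day 7. Without WT day 7 replicate 1 there were again 3 called, with Cyp26a1 at 1.26 (0.00324, in place of 0.88 and 0.249) and Crabp2 at 1.49 (0.0116, in place of 1.17 and 0.114) added, and Crabp2 also passed with the replicate block (0.0106). As the effects at day 7 and day 9 share the mESC libraries, and the last comparison both aggregates, these are not independent.

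**Figure D4:**
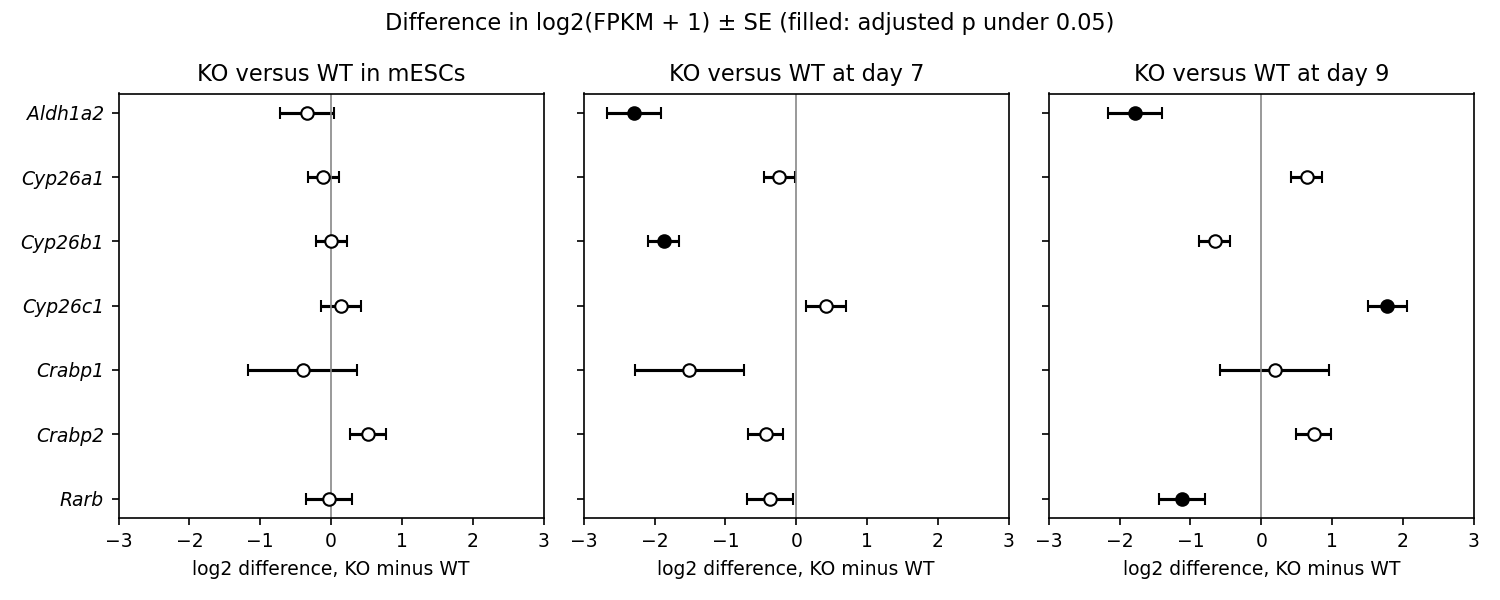
Difference of KO minus WT in log2(FPKM + 1), with its SE, for the 7 members tested in mESCs, at day 7 and at day 9, filled where the adjusted p was under 0.05. All points of mESCs are open, Aldh1a2 (-2.29) and Cyp26b1 (-1.87) are filled at day 7, and Aldh1a2 (-1.78), Rarb (-1.12) and Cyp26c1 (1.78) are filled at day 9.

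Of 38 further genes of the pathway, in 7 lists, 29 were in the fit. KO against WT called 0 of the 29 in mESCs by limma, with 4 at an unadjusted p under 0.05. At day 7 it called 7, against 3.68% of all genes, with 6 lower and 1 higher, and the median was -0.14 against 0.00 over all genes. The count was 3 with a pseudocount of 0.1, 2 with the day 7 libraries fitted alone, 3 without WT day 7 replicate 2 and 4 without WT day 7 replicate 3. The largest differences were in Hoxb1, a hindbrain Hox gene that retinoic acid switches on, and in Tgm2, the tissue transglutaminase that retinoic acid is known to induce. Hoxb1 was at 19.5, 25.7 and 29.5 FPKM in WT and at 3.62, 16.7 and 7.19 FPKM in KO (-1.55, SE 0.31, adjusted p = 0.00359). Tgm2 was at 5.66, 5.03 and 7.09 FPKM in WT and at 3.17, 1.61 and 1.36 FPKM in KO (-1.22, SE 0.22, adjusted p = 0.0014). In neither gene did the libraries overlap. The single gene that was higher was the receptor gene Rxrg, at 3.46, 1.52 and 1.55 FPKM in WT and 4.84, 4.09 and 5.35 FPKM in KO (0.91, SE 0.19, adjusted p = 0.0054). Rxrg passed the filter on the mean only through KO day 7, as its other libraries averaged 0.702 FPKM, and with no filter the adjusted p was 0.00443. By list, 1 of 2 genes of retinol uptake and storage, 1 of 6 of retinol and retinal interconversion and 4 of 8 targets known from other cells were lower, 1 of 5 receptors was higher, and none of the corepressors, the related aldehyde dehydrogenases or the other carrier and its receptor was called.

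At day 9, 4 of 29 were called against 6.68% of all genes, 3 of them lower, with a median of -0.20. The count fell to 2 without WT day 9 replicate 2 or 3 or KO day 9 replicate 1 or 3. Hoxb1 was again the most changed, at 19.7, 25.6 and 26.2 FPKM in WT and 4.88, 10.8 and 9.22 FPKM in KO (-1.47, SE 0.31, adjusted p = 0.00379). Rbp4, the plasma carrier of retinol, followed, at 2.12, 8.91 and 10.0 FPKM in WT and 1.23, 2.17 and 1.60 FPKM in KO (-1.40, SE 0.39, adjusted p = 0.0283), where WT replicate 1 lay within the KO libraries. The third, Tgm2, was at 7.58, 11.2 and 12.9 FPKM in WT and at 3.11, 2.99 and 4.59 FPKM in KO (-1.33, SE 0.22, adjusted p = 0.000343). The gene that was higher was Aldh2, the mitochondrial aldehyde dehydrogenase, by 0.46 (adjusted p = 0.0272). In NSCs, 3 of 29 were called where 6.02% of all tested genes were, each of them lower, and nothing is read from that count because the contrast chose the members. The count was 5 with the replicate block, 6 with a pseudocount of 0.1 and 0 with the NSC libraries fitted alone. They were the homeobox genes Hoxb2 (-1.94, adjusted p = 7.02e-05), Meis2 (-1.52, adjusted p = 7.51e-05) and Meis1 (-0.89, adjusted p = 0.00558).

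**Figure D5:**
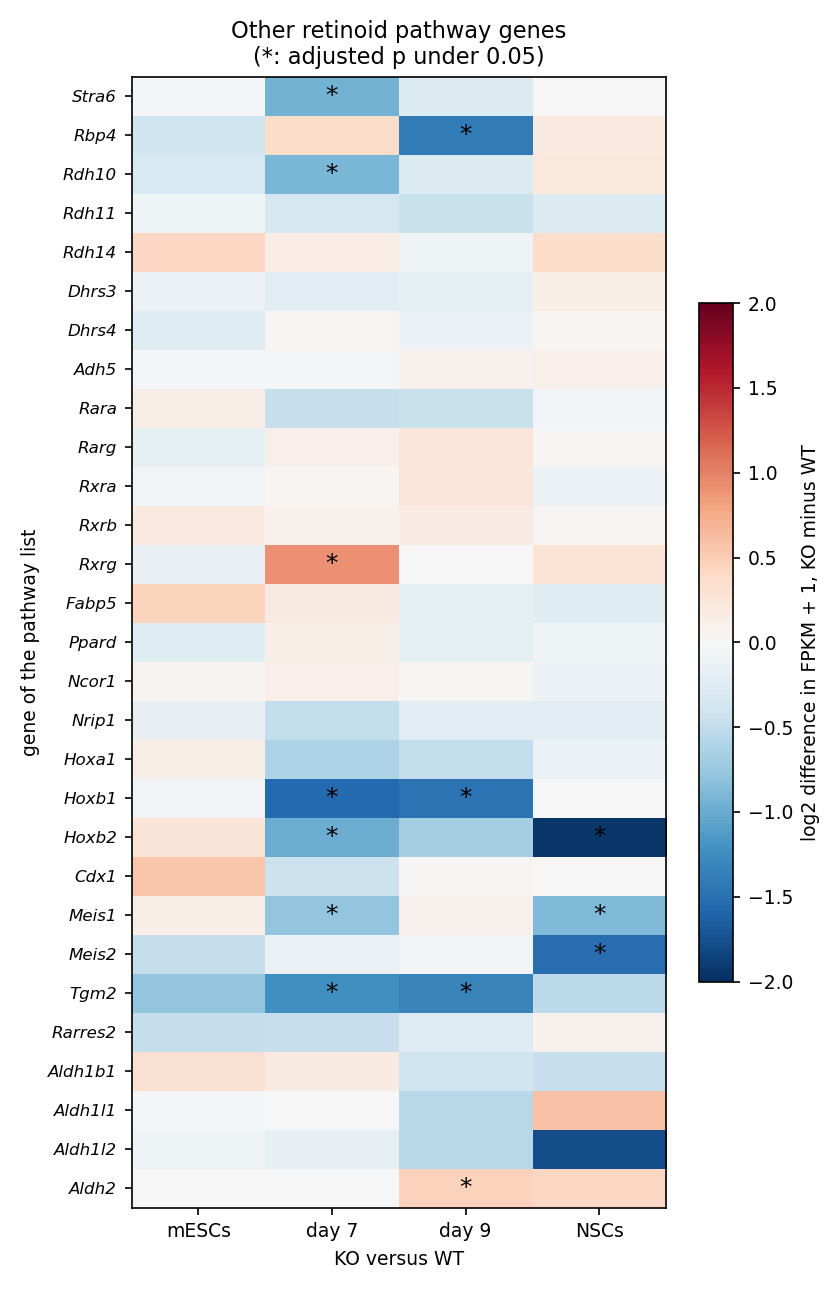
Difference of KO minus WT in log2(FPKM + 1), by colour from -2 (blue) to 2 (red), for the 29 pathway genes in the fit at each stage, with a star where the adjusted p was under 0.05. There are 0 stars for mESCs, 7 for day 7, 4 for day 9 and 3 for NSCs, and Hoxb1 is the bluest cell at both day 7 and day 9.

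Over the stages, 23 of the 29 changed from WT mESCs to day 7 (17 higher, 6 lower), led by the homeobox genes Hoxb2 (6.01) and Meis1 (4.92), and 22 did so in KO (16 higher, 6 lower), led by Cdx1 (-5.80) and Hoxb2 (4.76), where 59.2% and 61.3% of all tested genes changed. From day 7 to day 9 there were 12 in WT (5 higher, 7 lower), led by the receptor gene Rarg (-2.06) and by Rbp4 (1.45), and 11 in KO (8 higher, 3 lower), led by Rarg (-1.92) and Rxrg (-1.39), where 33.8% and 30.6% of all genes changed. The KO count was 6 with a pseudocount of 0.1, 6, 7 and 5 without KO day 7 replicate 1, 2 and 3 and 5 without KO day 9 replicate 3. With no filter on low values, 11 of the 12 in WT and 9 of the 11 in KO kept their call. All 23 and 22 from mESCs to day 7 did so. Hoxb1, Rbp4, Rxrg, Tgm2 and some others had reached the mean of 1 FPKM through the aggregates alone. The filter therefore favours rises into them, and nothing is read from the 23 and 22 against all genes. NSCs against mESCs gave 22 in WT (13 higher, 9 lower) and 19 in KO (12 higher, 7 lower), both led by Cdx1 (-5.47 and -6.02) and Meis1 (5.19 and 4.16), against 75.2% and 76.0% of all genes. KO effects differed between day 7 and mESCs in 2 genes, Rxrg (1.06) and Cdx1 (-0.97), against 1.68% of all genes, and in 0 with a pseudocount of 0.1, with these libraries fitted alone or without WT mESC replicate 3, KO mESC replicate 1 or 3 or KO day 7 replicate 1 or 3. Rxrg averaged 0.114 FPKM in WT and 0 FPKM in KO mESCs, so its difference largely restates that at day 7. Between day 9 and mESCs, where 2.68% of all genes were called, limma called 0, with 5 at an unadjusted p under 0.05, and between day 9 and day 7, where 1.83% were, it called 0, with 6 at an unadjusted p under 0.05.

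Pearson correlations of log2(FPKM + 1) over the 24 libraries, which share stage and depth, describe how alike the patterns were. Among the members, Cyp26a1 and Crabp2 (0.98), Cyp26a1 and Cyp26c1 (0.97), Cyp26c1 and Crabp2 (0.97) and Crabp1 and Crabp2 (0.95) were the most alike, and Aldh1a1 and Crabp1 (-0.68) the least. The tested genes nearest to Aldh1a1 were Serpina3n (0.961), Tnr (0.960) and Gpr37l1 (0.958). Those nearest to Aldh1a2 were Pga5 (0.931), Hoxb9 (0.916) and Meox1 (0.893), of which Meox1 is on the mesoderm list. Nearest to Cyp26a1 were Tagln (0.980) and Foxb1 (0.975), to Cyp26b1 Daam2 (0.971), Pth1r (0.960) and the entry of Mir1897 and Sox2ot (0.958), and to Cyp26c1 Thbs1 (0.981), Tnfaip2 (0.980) and Greb1 (0.978). Crabp1 was most like Arid3a (0.965), Ccdc8 (0.960) and Col2a1 (0.960), and Crabp2 most like Crb2 (0.988), Greb1 (0.988) and Mpped1 (0.986). Nearest to Rarb were Has2 (0.912), Rgnef (0.889) and St3gal1 (0.883).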

How the data were processed

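Stranded poly(A) libraries of 24 samples (3 replicates in 8 groups) were sequenced single-end, and the study describes the experiments as biologically independent. The authors trimmed reads with Trim Galore 0.6.6, aligned them with TopHat2 2.1.1 to mm9, removed ribosomal and X-chromosome reads and ran Cuffdiff. The deposited values used here are FPKM per gene. The 1091 genes on X or Y were at 0. Read totals, the library normalization and counting by strand are not given in the sources used here. Of 36 FPKM columns, 12 of samples outside the series were not used. Of 31400 low values above 0 (genes with a mean of at most 0.3 FPKM), 91.48% were whole multiples of a step within 0.05 reads, which gave the relative depth.

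Groups came from the labels. For 12105 genes with a mean of at least 1 FPKM and no failed estimate, log2(FPKM + 1) was fitted over the 8 groups with limma 3.58.1 (R 4.3.3, eBayes with trend and robust, two-sided). Genes were called at an adjusted p under 0.05, and the fit was tested on simulated data. The pseudocount of 1 understates changes of low genes. Exact permutation tests (scipy 1.17.1) compared sums, shares and Aldh1a3, and with 3 against 3 cannot go below 0.1. The same replicate number went with correlated deviations of WT and KO in mESCs (r of 0.289, 0.435 and 0.141) and NSCs (0.335, 0.184 and 0.24), but not at day 7 (0.096, 0.084 and 0.038) or day 9 (0.015, 0.029 and -0.107). Alternatives were another pseudocount, no filter, other scalings, plain eBayes, the compared groups alone, a replicate block and leaving out each library.

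The text names all 9 members, the 2 called pathway genes with the largest difference in each comparison and the 3 genes most like each member; others are said to have been named after their values were seen or belong to a count of 5 or fewer. A few genes are not reported here. The members, lists and markers were chosen with earlier results of these data known. Promoter windows are from RefSeq, and transcripts were compared in windows of 80 bases with up to 2 mismatches.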

Additional observations from a re-analysis of the deposited data

Results flagged for a closer look

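KO effects that differed between stages, by the test of the difference itself, were called in 5 cases. Cyp26b1, Cyp26c1 and Rxrg averaged at most 0.114 FPKM in mESCs of either genotype, where no KO effect on them could be seen. Their differences from mESCs therefore largely restate those at day 7 or day 9. For Cyp26b1 the KO effect at day 7 was lower than in mESCs by -1.87, which kept its call under 19 of 19 alternatives, and that at day 9 was higher than at day 7 by 1.21, which lost it under 10 of 19. For Cyp26c1 the effect at day 9 was higher than in mESCs by 1.64, which lost its call under 11 of 19. Among the pathway genes, Rxrg had a higher effect at day 7 than in mESCs (1.06, SE 0.27, adjusted p = 0.047 by limma). Cdx1, an early caudal homeobox gene, had a lower effect at day 7 (-0.97, SE 0.22, adjusted p = 0.02), and it was at 36.7 to 75.7 FPKM in mESCs and under 0.8 FPKM in all aggregates. Neither of the last 2 calls was made with a pseudocount of 0.1 or with the compared libraries fitted alone. The comparisons with mESCs share the mESC libraries.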

How the results depend on the processing

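Among the log2 differences of members, 1140 of 1218 values under alternatives kept their direction and side of the threshold, 44 lost and 24 gained a call and 10 changed sign; the causes were not tested. The number of members called moved in 29 of 174 values. With the compared libraries alone, it was 1 at day 7, 2 from WT day 7 to day 9 and 0 for the KO effect at day 9 against mESCs. With a pseudocount of 0.1 it was 0 for the effect at day 9 against mESCs and 0 for day 9 against day 7, and on scaling to the same FPKM sum it was 0 for the latter. With the replicate block it was 5 at day 9, 3 for day 7 against mESCs, 0 for day 9 against mESCs and 2 for day 9 against day 7. Leaving out 1 library gave 1 to 3, 0 to 2 and 0 to 3 for these last comparisons. The block rests on replicate numbers, which went with correlated deviations of the genotypes only in mESCs and NSCs. It changed no member call of KO against WT in mESCs.

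The pathway genes called with a pseudocount of 0.1 were 3 at day 7, 6 in NSCs, 6 from KO day 7 to day 9 and 0 for day 7 against mESCs. With the compared libraries alone they were 2 at day 7, 0 in NSCs, 0 for day 7 against mESCs and 1 for day 9 against mESCs. For day 7 against mESCs they were 1 on scaling to the sum. With the replicate block they were 5 in NSCs, 2 for day 9 against mESCs and 2 for day 9 against day 7, and for the latter 1 without a filter. With 1 library left out they were 3 to 7 at day 7, lowest without WT replicate 2 and then 4 without WT replicate 3, 2 to 4 at day 9, lowest without WT replicate 2 or 3 or KO replicate 1 or 3, 5 to 9 from KO day 7 to day 9, 0 to 4 for day 7 against mESCs and 0 to 1 for day 9 against day 7.

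Signs changed where values were small. Crabp2 from WT day 7 to day 9 was 0.03 on scaling to the sum. With a pseudocount of 0.1 the effect at day 7 against mESCs was 0.37 for Cyp26a1 and -0.48 for Cyp26c1, and that at day 9 was -0.08 for Crabp2. With 1 library left out, Cyp26a1 ran from -0.62 to 0.09 and Rarb from -0.69 to 0.04 at day 7, Crabp2 from -0.43 to 0.14 from WT day 7 to day 9, Cyp26c1 from -0.35 to 0.06 from KO day 7 to day 9, and Cyp26a1 from -0.51 to 0.21 and Rarb from -0.66 to 0.07 for the effect at day 7 against mESCs.

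Scaling to the same FPKM sum moved the median of all genes to 0.18 from WT mESCs to day 7, to 0.36 from WT mESCs to NSCs, to 0.44 in KO and to -0.10 in KO against WT at day 9, and the higher share of calls there from 38.6% to 22.7%, so changes near these sizes depend on the scaling.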

Other observations

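Eye field and retina markers summed to 4.10 to 6.89 FPKM in WT and 10.9 to 20.5 FPKM in KO at day 7. Of the 2 in the fit, 1 was higher at day 7 and at day 9, where 3.68% and 6.68% of all tested genes were called. Neuron markers summed to 546 to 593 FPKM in WT and to 282 to 394 FPKM in KO at day 9, with 3 of 5 lower.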
